A study of Mus musculus with 21 samples.

Results

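In mice given tamoxifen, stomach corpus cells with a bright Lgr5GFP reporter (Lgr5GFP high) were set against corpus cells with a dim one (Lgr5GFP low) across 22180 genes. The comparison takes 8 of the 21 arrays of the series, chosen by their labels alone: 4 of tamoxifen high cells and 4 of tamoxifen low cells. The study sorted corpus cells by flow cytometry into Lgr5GFP high, low and negative populations and profiled their RNA on microarrays. The tamoxifen mice were injected at 0.27 mg per g body weight, and their cells were isolated 24 hours later. The control mice, used below where the high-low difference is set beside that of untreated animals, received no injection, and their high and low populations have 3 arrays each. The labels call the tamoxifen samples injured, and the series design describes the replicates as technical, from individual sorting runs. The p-values therefore measure only the spread between these samples. The reporter allele, strain and age are not given in the sources used here, and every group carries the reporter. The number of arrays limits the precision of every value.

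The corpus gland holds pepsinogen-secreting chief cells at its base, acid-secreting parietal cells along its length, mucous neck cells, mucous pit cells at the surface, hormone-producing endocrine cells and scattered chemosensory tuft cells. Lgr5 is a receptor for R-spondins, proteins that strengthen Wnt signalling, and it marks stem cells in several epithelia. The series title places it in chief cells. In the mouse stomach, tamoxifen at high dose damages parietal cells.

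Values are log2 signal, so a difference of 1 is a 2-fold change, and every difference is high minus low with its standard error (SE). As a guide to background, 95% of the 1105 olfactory receptor genes had a mean at or under 4.16, and a fold is given as at least so much where the dimmer group lay at or under that level. A gene was called when its limma p-value, adjusted by Benjamini-Hochberg over all genes, was under 0.05. Lgr5 names the reporter used for sorting, so its level is a check of the labels rather than a finding. Its log2 signal was 8.05, 8.42, 8.74 and 8.53 in tamoxifen high cells, against 6.54, 7.01, 6.75 and 6.49 in tamoxifen low cells, with no overlap. Tamoxifen negative cells averaged 4.59 ± 0.16 (SD, n = 4 arrays).

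Of the 22180 genes, 323 (1.46%) were called higher and 392 (1.77%) lower in high than in low cells. The higher genes moved further: 229 of them differed at least 2-fold and 78 at least 4-fold, while the counts among lower genes were 139 and 22. The groups did not overlap on any array for 271 of the called higher genes and 344 of the called lower genes. Among all genes, 639 (2.88%) lay higher without overlap and 1013 (4.57%) lower. The median difference over all genes was -0.01. The plot of all genes shows the higher genes reaching further from 0 than most of the lower ones.

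**Figure D1:**
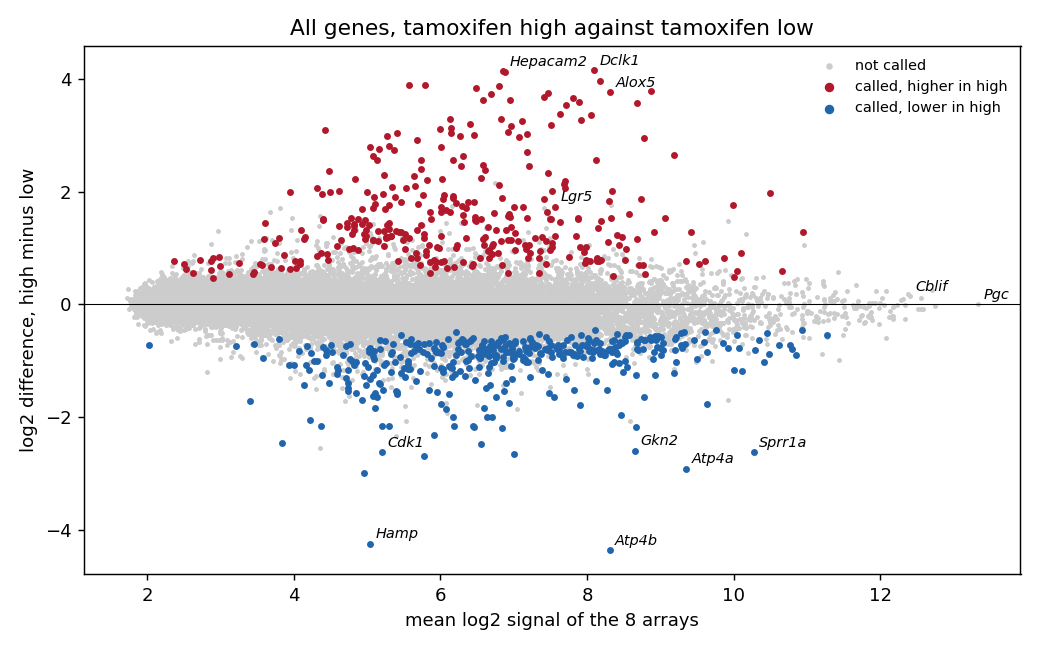
Each point is a gene, with its mean log2 signal on the 8 arrays on the horizontal axis and its log2 difference, tamoxifen high minus tamoxifen low, on the vertical axis. Red points are the 323 genes called higher, blue points the 392 called lower and grey points the rest, and Dclk1 at 4.16 and Atp4b at -4.37 mark the ends of the range.

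The counts depended on single arrays. Without tamoxifen high 1 there were 511 higher and 607 lower calls, without tamoxifen high 3 there were 210 higher calls, and the lower calls came to 146 without tamoxifen low 1, 206 without tamoxifen low 2 and 252 without tamoxifen low 3. In all, 287 of the 715 genes called either way (3.22% of those tested), 167 higher and 120 lower, stayed called whichever of the 8 arrays was left out. A gene described below as higher or lower is among those 287 unless the loss of its call is stated. With cyclic loess normalization, which evens out signal-dependent shifts between arrays, the split was 452 higher and 250 lower. With only the 8 arrays in the fit, there were 138 higher and 107 lower calls. The tuft cell list then had 10 calls and the parietal list 4, and the surface pit, Wnt and stem cell, and endoplasmic reticulum lists had none.

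Tuft cell genes had the highest median among the cell type lists. Tuft cells are rare epithelial cells that sense the lumen with taste receptor machinery and release leukotrienes, prostaglandins, acetylcholine and the cytokine interleukin 25. Of 14 measured genes on the tuft cell marker list, 12 were called higher and none lower, all 14 differences were above 0, and the median was 3.31. The mean log2 signal of the list was 7.07, 8.40, 9.48 and 9.47 on the tamoxifen high arrays, against 5.45, 5.84, 6.42 and 5.35 on the tamoxifen low arrays. The populations did not overlap, and tamoxifen high 1 lay well under the other high arrays. Tamoxifen negative cells, at 5.50 to 6.28, lay in the range of the low cells. The arrays measure sorted bulk samples, so fewer cells of a type and less RNA per cell cannot be told apart. All 12 calls held whichever array was left out. Without tamoxifen high 1, the folds of 14 of the called tuft genes described here and below were over 1.5 times larger, as for Alox5 at 23-fold and Pou2f3 at 18.7-fold.

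Dclk1, a microtubule-associated kinase that is the standard tuft cell marker, led the list. It measured 8.51, 10.22, 11.02 and 10.93 in tamoxifen high cells, against 5.28, 6.38, 7.06 and 5.31 in tamoxifen low cells, a difference of 4.16 ± 0.49 (SE), or 17.9-fold (adjusted p = 0.000117). Every high array exceeded every low array.

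The other tuft genes are described by role, in groups that were put together after their values were seen. Among transcription factors, 7 of 9 were called higher. Pou2f3, the factor that tuft cells require, measured 7.0, 8.56, 10.03 and 9.49 in high cells, against 4.48, 5.67, 5.57 and 4.81 in low cells (3.64 ± 0.54 SE, 12.4-fold, adjusted p = 0.000581). Spib, an ETS factor also used by B cells and M cells, was 17.7-fold higher. Gfi1b was 4.36-fold, Hmx3 3.14-fold, Hmx2 2.82-fold, Ehf 2.43-fold and Runx1 1.96-fold higher. Sox9 (0.91 ± 0.26 SE, adjusted p = 0.0577) was not called, although its high arrays, 9.66 to 10.42, lay above its low arrays, 8.64 to 9.43.

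Of 11 taste transduction genes 7 were called higher. Trpm5, the cation channel at the end of the sweet, bitter and umami cascade, measured 7.88, 9.63, 10.73 and 10.70 in high cells, against 5.81, 6.43, 7.16 and 6.08 in low cells (3.36 ± 0.51 SE, 10.3-fold, adjusted p = 0.000767). Gnat3, the taste G protein gustducin, was 9.58-fold higher (14.7-fold without tamoxifen low 3), but its groups overlapped, with 6.92 on tamoxifen high 1 and 7.33 on tamoxifen low 3. Plcb2, the phospholipase that gustducin signalling acts through, was 4.70-fold higher, and Itpr2, a calcium release channel, 4.17-fold. The receptor subunit Tas1r3, shared by sweet and umami receptors, was 3.88-fold higher, while its umami partner Tas1r1 was at or under background in both populations (4.05 in high and 3.85 in low cells). Rgs13 and Rgs2, which shorten G protein signals, were 12.8-fold and 6.31-fold higher.

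In the eicosanoid group, also chosen with its values in view, 6 of 7 genes were called higher, so that count is a description. Alox5, which makes leukotriene A4, measured 7.92, 10.58, 11.26 and 11.02 in high cells, against 6.02, 6.72, 7.33 and 5.67 in low cells (3.76 ± 0.59 SE, 13.6-fold, adjusted p = 0.00115). Alox5ap, which hands it arachidonic acid, was 11.9-fold higher, and Ltc4s, which makes leukotriene C4, was 10.4-fold higher. In the prostaglandin branch, the cyclooxygenase Ptgs2 was at least 2.27-fold higher and Hpgds, the synthase of prostaglandin D2, at least 10.1-fold. Hpgd, which breaks prostaglandins down, was 2.16-fold higher.

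Signalling proteins best known from blood cells made up a group of 15, chosen with their values in view, so its count of 15 called is a description. There were 12 calls without tamoxifen high 3, high 4 or low 2, and 10 with only the 8 arrays in the fit. The guanine exchange factor Vav1 was 14.4-fold, the phosphatidylinositol kinase subunit Pik3r5 13.5-fold, the adaptor Fyb 11.7-fold, the lipid phosphatase Inpp5d 8.02-fold, the GTPase Rac2 7.75-fold, the kinase Bmx 5.94-fold and the tyrosine phosphatase Ptpn6 4.40-fold higher. Sh2d7 and Sh2d6, both SH2 domain proteins, were 15.6-fold and 13.9-fold higher, and the lectin Siglecf 9.82-fold. The pan-leukocyte phosphatase Ptprc is in this group too, at 4.54, 5.64, 7.89 and 8.86 in high cells, against 3.84, 3.74, 4.71 and 3.69 in low cells. Its call (2.74 ± 0.66 SE, adjusted p = 0.0228) was lost in 5 of the 8 fits that left out 1 array, with adjusted p = 0.0843 without tamoxifen high 3.

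Other cells carry some of these proteins. Of 15 genes on the leukocyte marker list, 1 (Ptprc) was called higher and 1 (Cd68) lower, 8 had a mean over the 21 arrays above background, and the list means were 4.01 to 4.45 in high and 4.19 to 4.40 in low cells. On the mast cell list 1 of 9 genes had a mean above background. That gene, the receptor Kit (1.55 ± 0.37 SE, adjusted p = 0.0231), lost its call in 5 of the 8 fits, with adjusted p = 0.0789 without tamoxifen high 3. The list means were 3.39 to 3.65 in high cells and 3.36 to 3.50 in low cells. Their part in the result was not tested.

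Brush border and cytoskeletal genes included 10 called higher and 2 lower of 14. Avil, an actin-binding protein of the tuft cell tip, was 9.10-fold higher, the protocadherin Cdhr2, which links microvilli, 14.8-fold, and villin (Vil1), an actin bundler, 4.04-fold. The lower members were Ezr, a membrane-actin linker that parietal cells also express strongly (-0.97 ± 0.23 SE), and Tubb3, a tubulin (-1.42 ± 0.34 SE). Their calls were lost in 4 and 5 of the 8 fits, with adjusted p = 0.0900 for Ezr without tamoxifen low 1 and 0.0754 for Tubb3 without tamoxifen low 4.

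Among 6 cytokine and receptor genes 3 were called higher. They were Il13ra1, a receptor chain for interleukins 4 and 13 (1.98-fold), the growth factor Nrg4 (1.95-fold) and Il17rb, the interleukin 25 receptor. Il17rb measured 4.01, 6.0, 7.83 and 7.84 in high cells, against 3.23, 3.75, 4.80 and 3.61 in low cells, and its call was lost in 4 of the 8 fits (adjusted p = 0.0719 without tamoxifen low 1). Il25 itself was not called (0.60 ± 0.28 SE, adjusted p = 0.294), nor was Chat, which makes acetylcholine (0.75 ± 0.35 SE, adjusted p = 0.292).

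**Figure D2:**
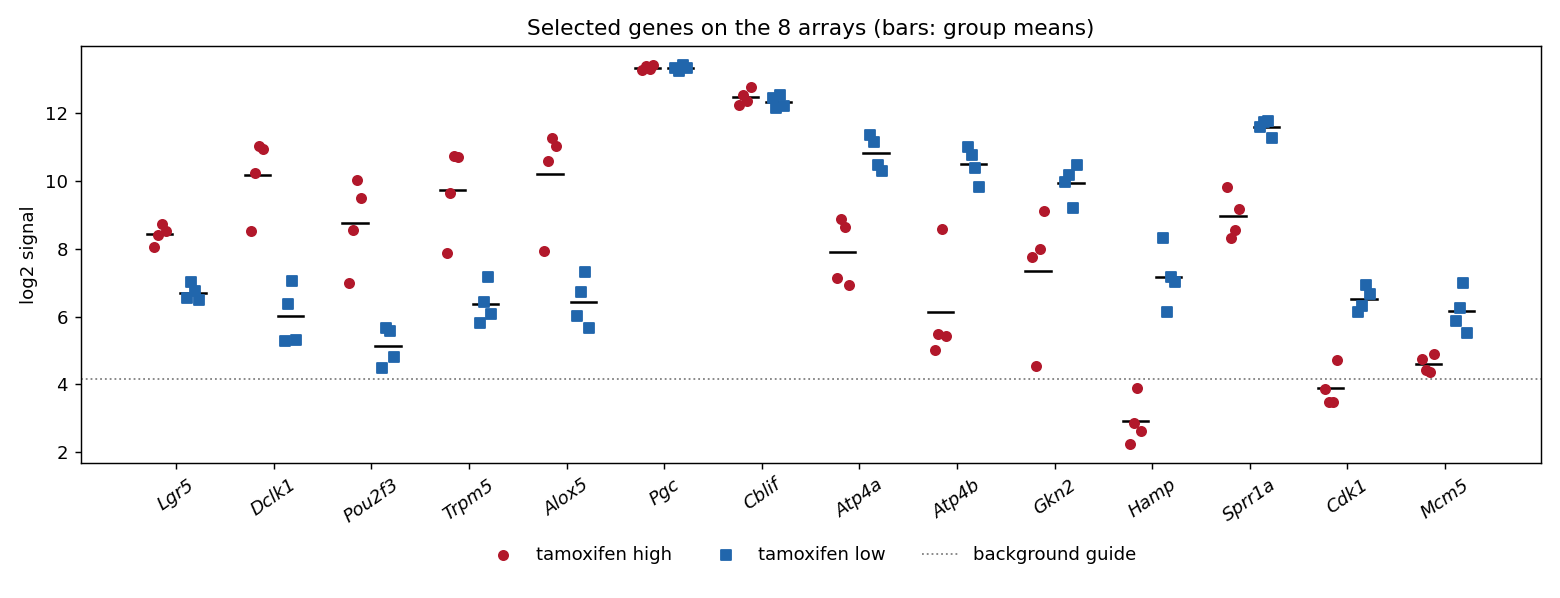
Log2 signal of 14 genes on each of the 4 tamoxifen high arrays (red circles, left) and the 4 tamoxifen low arrays (blue squares, right), with bars at the group means and a dotted line at the background guide of 4.16. The tuft genes Dclk1, Pou2f3, Trpm5 and Alox5 lie higher on all high arrays, Pgc and Cblif lie together, and Atp4a, Atp4b, Gkn2, Hamp, Sprr1a, Cdk1 and Mcm5 lie lower on all high arrays.

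The sequence just before the start site was read for the 15 genes with the largest rise, of which 14 have an entry in the RefSeq promoter table, and searched for the octamer ATGCAAAT, the motif of the POU family to which Pou2f3 belongs. In the 250 bases before the start, on either strand, it occurs for 2 of the 14 genes (Hpgds and Kctd12). Of the 15 genes with the largest fall, 10 have an entry, and 0 of those hold it. Counted by promoter entry rather than by gene, it occurs in 526 of all 32851 (1.6%). Both matches read on the gene's own strand. They begin 174 bases before the start in Hpgds and 160 bases before it in Kctd12, which encodes a subunit of GABA-B receptors and was 12.1-fold higher in high cells (7.15-fold with its probe sets averaged). The octamer is in capitals in the 250 bases upstream of each gene, shown because the members that lead the comparison moved together. A match is a description and not a binding site. Positions are on the minus strand of GRCm38.p6, at chr6:65144731-65144980 for Hpgds and chr14:102982638-102982887 for Kctd12.
Hpgds: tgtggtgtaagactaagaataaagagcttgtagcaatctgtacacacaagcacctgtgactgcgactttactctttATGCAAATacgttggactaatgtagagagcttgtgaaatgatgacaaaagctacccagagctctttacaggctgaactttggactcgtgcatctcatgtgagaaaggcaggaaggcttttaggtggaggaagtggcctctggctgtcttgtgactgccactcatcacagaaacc
Kctd12: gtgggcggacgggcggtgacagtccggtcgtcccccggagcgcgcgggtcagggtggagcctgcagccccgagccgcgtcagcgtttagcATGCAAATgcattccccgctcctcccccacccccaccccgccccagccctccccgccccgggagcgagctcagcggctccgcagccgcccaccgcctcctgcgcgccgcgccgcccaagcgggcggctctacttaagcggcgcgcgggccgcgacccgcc

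Chief cell genes did not separate the populations. None of 11 chief cell markers was called in either direction by limma, 2 had an unadjusted p under 0.05, and the median was 0.01. Xbp1, a transcription factor of secretory cells, lay just over the threshold (0.60 ± 0.17 SE, adjusted p = 0.0511) and was called higher with cyclic loess normalization or without tamoxifen high 4. Pgc, which encodes pepsinogen C, measured 13.26, 13.38, 13.29 and 13.42 in high cells, against 13.32, 13.25, 13.42 and 13.33 in low cells, close to the highest value in the table, 13.55. Cblif, gastric intrinsic factor, differed by 0.14 ± 0.15 (SE, adjusted p = 0.747). Bhlha15 (Mist1), the transcription factor that scales up the secretory apparatus of chief cells, measured 5.04, 5.59, 6.44 and 7.29 in high cells, against 4.75, 5.12, 5.59 and 5.02 in low cells (adjusted p = 0.127), and the groups overlapped. Without tamoxifen high 1 it was called. A p-value over the threshold does not show that the levels are equal. Of 21 secretory vesicle genes, 1 was called each way. Sytl2, an effector of Rab27 GTPases, was 4.47-fold lower, while Rab27a was 2.56-fold higher and lost its call without tamoxifen low 1 (adjusted p = 0.0566).

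Mucous neck genes leaned to high cells, but 1 of 7 was called. All 7 differences were above 0, with a median of 1.05. The called gene was Spdef, a transcription factor of mucous cells (0.80 ± 0.20 SE, adjusted p = 0.0295), and its call was lost in 5 of the 8 fits (adjusted p = 0.0898 without tamoxifen high 3). Agr2, which folds mucins, differed by 1.26 ± 0.38 (SE, adjusted p = 0.0762) and A4gnt, a mucin glycosyltransferase, by 1.72 ± 0.56 (SE, adjusted p = 0.105). Tff2, the neck cell trefoil peptide, differed by 0.35 ± 0.30 (SE, adjusted p = 0.663). The list mean was 10.71, 8.97, 9.90 and 9.71 in high cells, against 8.12, 8.75, 8.76 and 9.62 in low cells. Tamoxifen high 1 was the highest and tamoxifen low 4 stood apart from the other low arrays. Without tamoxifen high 2 the list had 3 higher calls, and without tamoxifen high 1 its median was 0.71.

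Stem cell and Wnt genes other than Lgr5 differed less than tuft genes. Of 28, 3 were called higher and none lower, with a median of 0.37. Nkd1, a feedback inhibitor of Wnt signalling, measured 5.31, 5.33, 6.85 and 6.39 in high cells, against 4.26, 4.81, 4.32 and 4.85 in low cells (1.41 ± 0.27 SE, adjusted p = 0.0054). Prom1, a membrane protein used as a stem cell marker, was 1.78-fold higher with no overlap. Smoc2, a matrix protein of intestinal stem cells, was called (1.30 ± 0.29 SE), but lost its call in 4 of the 8 fits (adjusted p = 0.0787 without tamoxifen low 1). The Wnt target Axin2 measured 5.54 to 6.30 in high and 5.43 to 6.0 in low cells (adjusted p = 0.544). Without tamoxifen high 1 the list had 5 higher and 2 lower calls and a median of 0.23. In the Notch list 2 of 16 genes were called, Lfng, which tunes Notch receptors (2.10-fold higher, no overlap), and the ligand Jag2, which lost its call in 5 of the 8 fits (adjusted p = 0.136 without tamoxifen low 1).

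Other genes higher in high cells included Mmp7, a matrix protease induced in injured and metaplastic epithelium. It measured 8.03, 8.16, 8.33 and 6.95 in high cells, against 6.58, 6.20, 5.18 and 6.59 in low cells (1.73 ± 0.28 SE, 3.31-fold, adjusted p = 0.00141). With its probe sets averaged it was 2.01-fold higher, and with only the 8 arrays in the fit its adjusted p was 0.0517. On the metaplasia and injury list 2 of 15 genes were called higher (Mmp7 and Vil1) and 1 lower. Endoplasmic reticulum folding genes had 4 of 21 called higher and a median of 0.30. The oxidase Ero1b, which forms disulphide bonds in secretory cells, was 2.90-fold higher, at 7.60, 8.38, 9.19 and 9.43 in high cells, against 7.47, 6.90, 7.38 and 6.70 in low cells. The other 3 calls on that list (Dnajb9, Dnajc3 and Hyou1, all under 2-fold) were each lost in 5 or 6 of the 8 fits, with adjusted p up to 0.121. The list had 1 call without tamoxifen low 2, low 3 or low 4, and 2 without tamoxifen high 4 or low 1. The endothelial receptor Tek was at least 2.52-fold higher and Kdr was called with both means under background (call lost without tamoxifen high 4 or low 1, adjusted p up to 0.0917), while 3 of 12 endothelial markers had a mean above background and the list means were 3.82 to 4.20 in high and 3.55 to 3.78 in low cells.

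**Figure D3:**
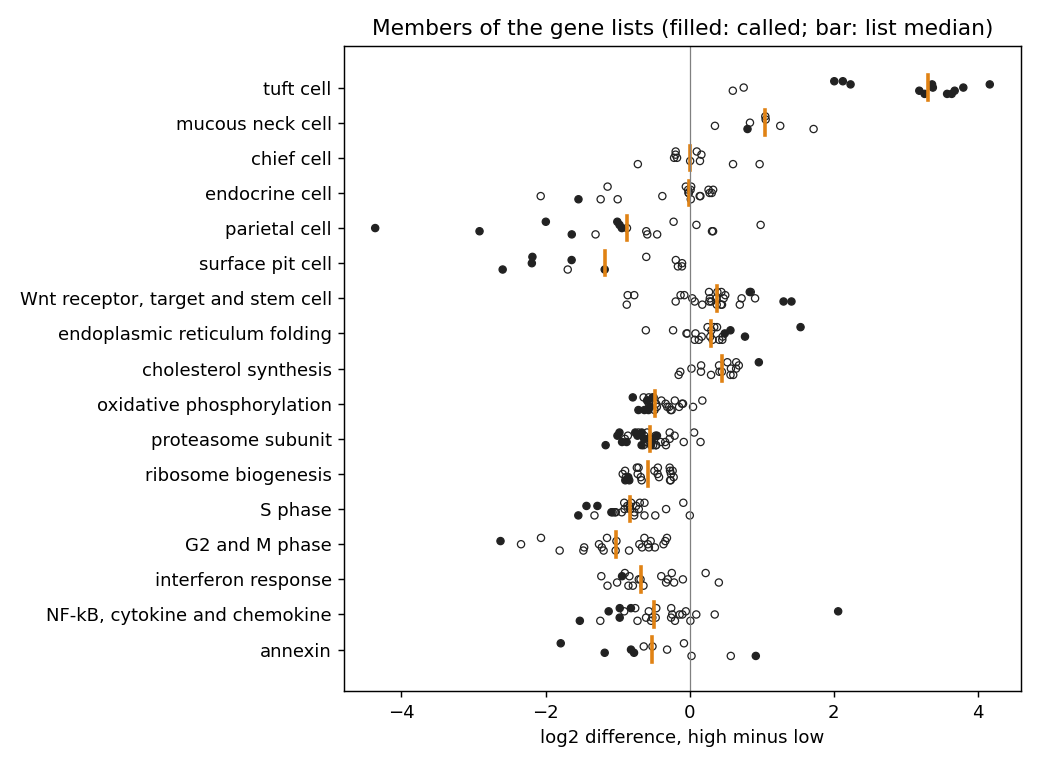
Each circle is a member of a gene list at its log2 difference, tamoxifen high minus tamoxifen low; filled circles passed adjusted p under 0.05 and orange bars mark list medians. The tuft cell list sits apart with a median of 3.31, while the parietal, pit, cell cycle, proteasome and oxidative phosphorylation lists have medians from -0.48 to -1.18.

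The acid pump genes of parietal cells were lower in high cells. Atp4b, the beta subunit of the gastric proton pump, measured 5.01, 5.48, 8.59 and 5.42 in high cells, against 11, 10.75, 10.39 and 9.81 in low cells, a difference of -4.37 ± 0.60 (SE, 20.6-fold lower, adjusted p = 0.000336). The groups did not overlap, and tamoxifen high 3 lay well above the other high arrays; without it Atp4b was 36.4-fold lower. Atp4a, the catalytic subunit, measured 7.14, 8.89, 8.64 and 6.93 in high cells, against 11.36, 11.14, 10.48 and 10.28 in low cells (-2.92 ± 0.42 SE, 7.55-fold lower, adjusted p = 0.000408). The energy-buffering kinase Ckb was 3.99-fold lower and the potassium channel subunit Kcne2, needed for acid secretion, 3.11-fold lower. Of 17 parietal markers, 7 were called lower and none higher, with a median of -0.87. Without single arrays there were 4 to 7 lower calls, the fewest without tamoxifen high 4, low 1 or low 2. Some members did not follow the pump. Kcnq1, the partner of Kcne2, measured 7.69 to 8.93 in high and 7.10 to 7.82 in low cells (0.98 ± 0.31 SE, adjusted p = 0.0935). It was called higher with cyclic loess normalization or without tamoxifen high 4. Slc4a2, the basolateral anion exchanger, differed by 0.32 ± 0.22 (SE, adjusted p = 0.544).

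Of 11 surface pit cell genes 5 were called lower. All 11 had a difference below 0, with a median of -1.18. Gkn1, gastrokine 1 of the surface mucus, measured 7.43, 5.77, 7.93 and 9.16 in high cells, against 9.77, 10.08, 9.15 and 10.03 in low cells (-2.18 ± 0.46 SE, 4.54-fold lower, adjusted p = 0.0111), with tamoxifen high 4 inside the range of the low arrays, and 3.00-fold lower without tamoxifen high 2. Gkn2 (-2.60 ± 0.60 SE, and -1.66 without tamoxifen high 2) lost its call in 3 of the 8 fits, Muc5ac, the surface mucin, (-2.19 ± 0.51 SE) in 5, Mucl3 in 6 and Anxa10 in 1, with adjusted p from 0.0548 to 0.116. Without tamoxifen low 1 there was 1 call, without tamoxifen low 2 there were 2, and without tamoxifen high 3, high 4 or low 4 there were 3 each. The list mean was 6.48 to 7.63 in high and 7.92 to 8.49 in low cells, and tamoxifen negative cells lay above both at 9.18 to 9.60.

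Hamp, the iron hormone hepcidin, had the smallest adjusted p of the genes named here. It measured 2.24, 2.86, 3.90 and 2.64 in tamoxifen high cells, all under the background guide, against 8.32, 6.13, 7.17 and 7.03 in tamoxifen low cells. The difference was -4.25 ± 0.36 (SE, adjusted p = 3.75e-06), at least 8.01-fold lower. Tamoxifen negative cells averaged 10.24 ± 0.39 (SD, n = 4 arrays), so Hamp was lower the brighter the reporter of the 3 tamoxifen populations. In control mice all 3 populations were under background, at 2.05 ± 0.38 in high, 2.20 ± 0.20 in low and 2.35 ± 0.32 in negative cells (SD, n = 3 arrays each).

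In liver, Hamp responds to bone morphogenetic protein (BMP) signals through SMAD proteins and to interleukin 6 through STAT3, and its proximal promoter holds an element for each. Both motifs lie in the 250 bases upstream of Hamp in GRCm38.p6 (chr7:30944030-30944279, minus strand), shown because Hamp leads the lower genes by its adjusted p. The capitals mark GGCGCC, which begins 109 bases before the start, and a match to TTCNNNGAA, which begins 97 bases before it. Searched on both strands, GGCGCC is in 9.59% and TTCNNNGAA in 7.02% of the 32851 promoters. Of the 10 genes with the largest fall and an entry, 2 hold GGCGCC (Cdk1 and Hamp) and 1 holds TTCNNNGAA (Hamp). Of the 14 with the largest rise and an entry, 0 hold GGCGCC and 1 holds TTCNNNGAA (Strip2). Both elements were known in Hamp beforehand, so the matches are a description. Their part in the Hamp difference was not tested.
Hamp: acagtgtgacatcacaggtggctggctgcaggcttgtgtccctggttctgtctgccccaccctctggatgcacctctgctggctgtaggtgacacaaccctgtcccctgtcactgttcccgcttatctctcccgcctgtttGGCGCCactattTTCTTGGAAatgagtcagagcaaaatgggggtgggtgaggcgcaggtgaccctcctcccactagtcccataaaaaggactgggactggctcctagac

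Of 20 BMP and TGF-beta genes, 2 were called lower and 1 higher, the ligand Bmp2, whose call was lost in 5 of the 8 fits. Id1, a direct BMP target, measured 6.17, 5.41, 5.87 and 6.12 in high cells, against 7.0, 7.18, 7.73 and 7.54 in low cells (-1.48 ± 0.29 SE, 2.78-fold lower, adjusted p = 0.00608). Id3, of the same family, was different by -1.34 ± 0.34 (SE, adjusted p = 0.0338), with its call lost in 4 of the 8 fits (adjusted p = 0.115 without tamoxifen low 3). The inhibitory SMADs Smad6 and Smad7, also BMP and TGF-beta targets, differed by -0.43 ± 0.27 and -0.49 ± 0.24 (SE) and were not called.

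Sprr1a, a cornified envelope protein that damaged epithelia make, measured 9.81, 8.33, 8.54 and 9.16 in high cells, against 11.58, 11.74, 11.76 and 11.26 in low cells (-2.62 ± 0.32 SE, 6.17-fold lower, adjusted p = 0.000132). Control high cells averaged 4.24 ± 0.06 and control low cells 5.85 ± 0.95 (SD, n = 3 arrays each), all under the tamoxifen values. It was the 1 call among 15 keratin and cornified envelope genes, whose median was -0.14 (4 calls without tamoxifen high 1 and 3 without tamoxifen high 2). Of 26 NF-kB, cytokine and chemokine genes, 5 were called lower and 1 higher, with a median of -0.50. The chemokine Cxcl16 was 2.88-fold, the cytokine Lif 2.18-fold, the chemokine Cxcl1 1.96-fold and the NF-kB subunit Relb 1.76-fold lower, each without overlap. Tnf (-0.97 ± 0.22 SE) lost its call without tamoxifen low 1 or low 2 (adjusted p = 0.0807 and 0.053). The 1 higher member was Ptgs2.

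The endotoxin co-receptor Cd14 (3.14-fold), the urokinase receptor Plaur (3.56-fold) and its ligand Plau (1.72-fold) were also lower. Nt5e, the ectoenzyme CD73, was 4.00-fold lower and Ccn2, a YAP target, 1.85-fold lower, the 2 calls among 16 YAP target genes. Of 25 actin, adhesion and migration genes, 5 were called lower (3 without tamoxifen low 1), among them the actin crosslinker Flna (2.89-fold), which measured 6.13, 6.80, 6.32 and 5.17 in high cells, against 7.77, 7.96, 7.49 and 7.31 in low cells. The annexins, calcium-dependent membrane-binding proteins, moved both ways. Anxa3 was 3.46-fold and Anxa5 1.71-fold lower, while Anxa4 was 1.89-fold higher. Of 11 annexins 4 were called lower and 1 higher, and 2 lower calls (Anxa6 and Anxa10) were lost without tamoxifen low 1.

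Of 23 G2 and M phase genes 1 was called lower, and of 27 S phase genes 4. All 23 G2 and M phase genes and 26 of 27 S phase genes had a difference below 0, with medians of -1.02 and -0.83. In high cells 13 of the 23 and 12 of the 27 lay lower without overlap, against 4.57% of all genes. With only the 8 arrays in the fit, the first list had 5 calls and the second 2. Cdk1, the mitotic kinase, measured 3.87, 3.47, 3.47 and 4.72 in high cells, against 6.13, 6.30, 6.93 and 6.67 in low cells (at least 4.63-fold lower, adjusted p = 0.00959). Mcm5, a subunit of the replicative helicase, measured 4.74, 4.44, 4.37 and 4.91 in high cells, against 5.88, 6.25, 6.99 and 5.53 in low cells (-1.55 ± 0.29 SE, 2.92-fold lower, adjusted p = 0.00457). The calls of Mcm3, Gins1 and Lig1 were lost in 6, 3 and 7 of the 8 fits. The S phase list had 6 lower calls without tamoxifen high 1 and 1 or 2 without tamoxifen high 3, high 4, low 1, low 2 or low 3. Mki67, the proliferation antigen, did not overlap between groups, at 4.70 to 5.95 in high and 6.14 to 6.73 in low cells, but was not called (-1.22 ± 0.56 SE, adjusted p = 0.284). In control mice the list medians were -0.59 for G2 and M phase and -0.31 for S phase.

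**Figure D4:**
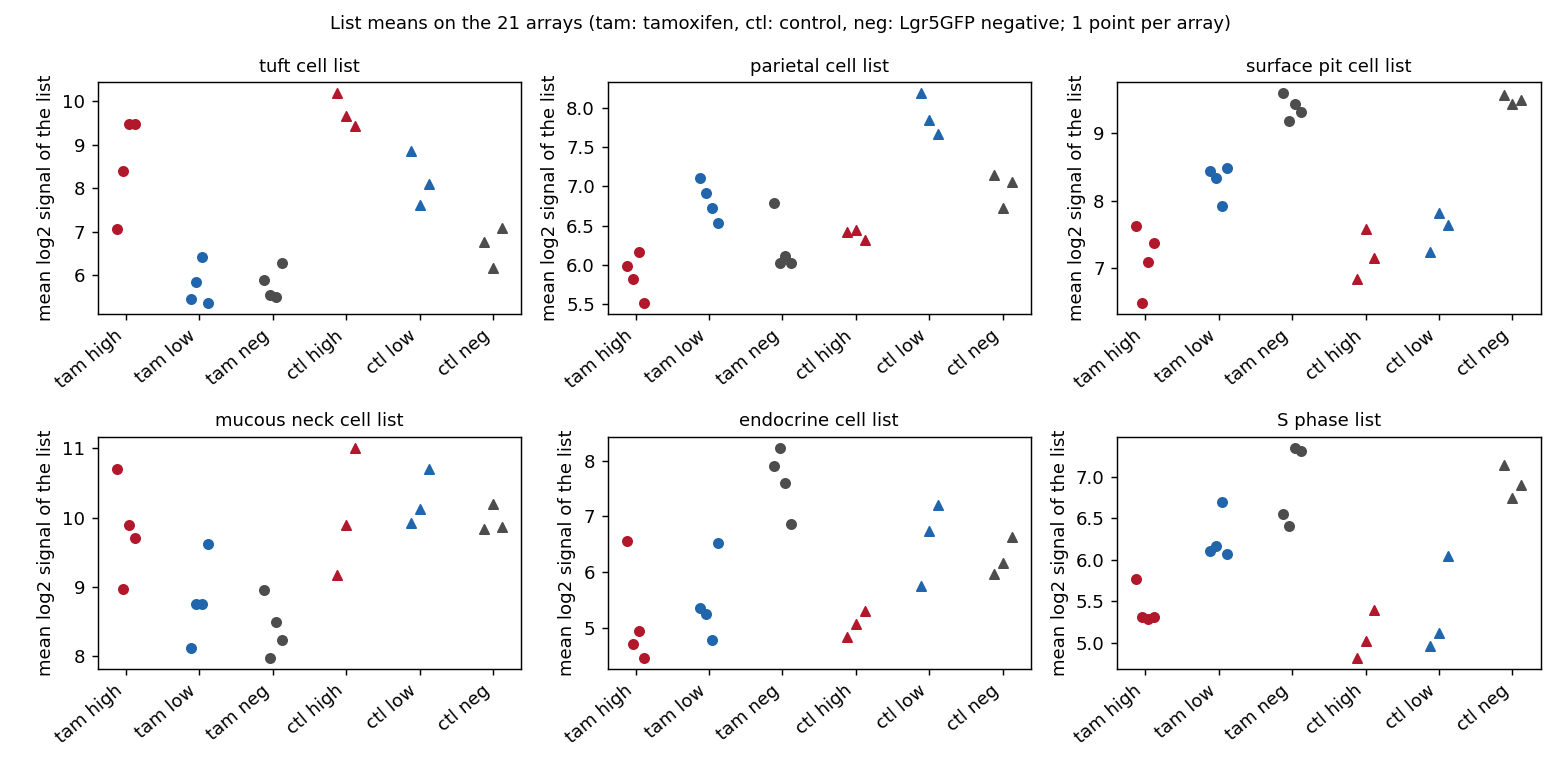
Mean log2 signal of 6 gene lists on each of the 21 arrays, 1 point per array, with tamoxifen populations as circles and control populations as triangles, coloured by reporter level. In tamoxifen mice the tuft list is higher and the pit and parietal lists lower in high than in low cells, and tamoxifen high 1 and tamoxifen low 4 stand above their groups on the endocrine list.

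Among families of protein turnover and energy supply, most members were not called. The proteasome, chaperonin and mitochondrial families were collected by symbol after values were seen. Of 38 proteasome subunits, 14 were called lower and none higher, 36 differences were below 0 and the median was -0.56. The list mean was 7.94 to 8.20 in high and 8.50 to 8.71 in low cells, without overlap. Psma7 was 2.25-fold, Psma6 1.97-fold, Psmd8 1.83-fold and Psmd1 1.59-fold lower. The number of calls was 4 without tamoxifen high 3 or low 1, 6 without tamoxifen high 4, low 2 or low 3, and 7 with cyclic loess normalization. The chaperonin that folds actin and tubulin had 4 of 9 subunits called lower, with Cct8 1.75-fold, Cct5 1.61-fold and Cct7 1.53-fold lower.

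Of 28 oxidative phosphorylation genes 7 were called lower, with a median of -0.48 and list means of 8.20 to 8.42 in high and 8.65 to 8.74 in low cells. All 7 calls were lost without at least 1 array, and 1 to 3 calls were made on the list without tamoxifen high 2, high 3, high 4 or any low array. Uqcrc2, a subunit of complex III, was the steadiest, at 8.80, 8.68, 8.48 and 8.66 in high cells, against 9.20, 9.22, 9.28 and 9.13 in low cells, and lost its call without tamoxifen high 3 (adjusted p = 0.0556). Mitochondrial import genes had 6 of 23 called lower (10 without tamoxifen high 1, and 1 to 3 without tamoxifen high 3, high 4 or any low array), of which Timm50 was 1.95-fold lower. Mitochondrial ribosomal proteins had 6 of 68 called lower (11 without tamoxifen high 1, and 0 to 2 without tamoxifen high 3, high 4, low 1, low 2 or low 3). Ribosome biogenesis genes had 3 of 22 called lower (9 without tamoxifen high 1, and 0 or 1 without tamoxifen high 3, high 4 or any low array), and all 22 differences were below 0. With cyclic loess normalization the medians of these 6 families were -0.37 to -0.47. Lower calls then came to 7 proteasome, 3 chaperonin, 1 oxidative phosphorylation, 3 mitochondrial import, 2 mitochondrial ribosomal and 2 ribosome biogenesis genes. With array weights, 4 proteasome and 3 chaperonin genes were called lower, and none in the other families. With only the 8 arrays in the fit, 3 proteasome and 2 mitochondrial import genes were called, and none of the chaperonin, oxidative phosphorylation, mitochondrial ribosomal or ribosome biogenesis genes. Parietal cells are rich in mitochondria, and the parietal list mean was 5.51 to 6.16 in high and 6.53 to 7.11 in low cells. Its part in the oxidative phosphorylation result was not tested.

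Interferon response genes leaned lower, but the size rested on 1 array. The median of 19 genes was -0.68 and 1 was called lower. The list mean was 5.15 on tamoxifen high 1, 6.64 to 6.67 on the other high arrays, and 6.95, 6.99, 7.59 and 5.84 on the low arrays. Without tamoxifen high 1 the median was -0.08, and without tamoxifen low 3 it was -0.39. The call, Psmb8, a subunit of the immunoproteasome (-0.94 ± 0.24 SE), was lost in 6 of the 8 fits. Of 14 heat shock genes 13 had a difference below 0, and the inducible Hsp70 gene Hspa1b was called, at 6.55, 8.48, 8.08 and 6.81 in high cells, against 9.62, 9.21, 9.88 and 9.07 in low cells (-1.97 ± 0.41 SE, 3.91-fold lower, adjusted p = 0.00884).

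Other single genes fell by large amounts. Apoa1, the main apolipoprotein of high-density lipoprotein, measured 4.28, 4.09, 5.56 and 3.80 in high cells, against 7.48, 7.17, 7.04 and 6.77 in low cells (-2.68 ± 0.31 SE, 6.42-fold lower, adjusted p = 0.000117). Slamf9, a receptor of the SLAM family, was 6.31-fold lower, and Serpinb9, an inhibitor of granzyme B, 4.55-fold lower.

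Endocrine markers did not separate the populations as a list. Of 19 genes 1 was called lower and the median was -0.01. That gene, the vesicular monoamine transporter Slc18a2, measured 3.68 to 4.41 in high cells, near or under background, and 5.14 to 5.73 in low cells, and its call was lost in 5 of the 8 fits (adjusted p = 0.0743 without tamoxifen low 1). The list mean was 6.55 on tamoxifen high 1 and 6.52 on tamoxifen low 4, against 4.45 to 4.95 on the other high and 4.78 to 5.36 on the other low arrays. Without tamoxifen high 1 the median was -0.47, and without tamoxifen low 4 it was 0.28. Sst, the hormone somatostatin, was uneven among high arrays, at 9.72, 5.21, 9.08 and 6.18 in high cells, against 9.57, 9.71, 9.67 and 9.51 in low cells (adjusted p = 0.119). Cholesterol synthesis genes had 1 of 17 called higher (Sqle, lost in 7 of the 8 fits) and a median of 0.45, and NRF2 target genes had 3 of 16 called lower (Nqo1, Gsta4 and Cbr3, each lost in at least 5 of the 8 fits). No member was called on the lists for fibroblast and smooth muscle, squamous epithelium, pancreatic acinar, immediate early, p53 target, amino acid response, EGFR ligand, lysosome or mucosal defence genes.

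Control mice gave an independent set of arrays for the same contrast, with 3 arrays a group. There 154 genes (0.694%) were called higher and 143 (0.645%) lower in high than in low cells, and 199 and 171 with the replicate number as a block. Of the tamoxifen calls, 77 higher genes were called higher in control mice too, which is 23.8% of the 323 and 50.0% of the 154. Of the lower genes 33 were shared, 8.4% of the 392 and 23.1% of the 143. With the control calls taken from the block, 104 higher and 36 lower genes were shared with the same tamoxifen calls. In the opposite direction, 1 gene was lower in tamoxifen and higher in control high cells, and none was the reverse. Across all genes the 2 sets of differences had a Pearson r of 0.506, as a description, since genes are not independent replicates.

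The tuft cell list had 12 calls and a median of 3.31 in tamoxifen mice, and 1 call and a median of 1.58 in control mice. Dclk1 averaged 10.17 ± 1.16 in tamoxifen high and 6.01 ± 0.87 in tamoxifen low cells (SD, n = 4 arrays each), and 11.24 ± 0.37 in control high and 9.67 ± 0.65 in control low cells (SD, n = 3 arrays each). The test of the difference between the 2 contrasts gave 2.59 ± 0.75 (SE, adjusted p = 0.393), so a difference between treatments was not established for Dclk1, nor for any other tuft marker. Atp4b was lower in control high cells too (-2.87, adjusted p = 0.0428), and the 2 contrasts did not differ by the test (adjusted p = 0.857). In control mice the parietal list had a median of -1.37 and 9 lower calls, and the oxidative phosphorylation list -0.70 and 9. The endocrine list had -1.01 and 5 there, the surface pit list -0.32 and 0, and the proteasome list -0.13 and 0. Lists were not tested between treatments.

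The test of the difference between treatments called 6 genes (0.0271%), 4 below 0 (0.018%) and 2 above 0 (0.00902%). Hamp had the largest value, -4.11 ± 0.55 (SE, adjusted p = 0.00435). Sdcbp2, a syntenin family protein, averaged 7.86 ± 0.52 in tamoxifen high and 8.88 ± 0.24 in tamoxifen low cells (SD, n = 4 arrays each), but 7.72 ± 0.27 in control high and 6.46 ± 0.19 in control low cells (SD, n = 3 arrays each). It was lower in high cells of tamoxifen mice and higher in high cells of control mice, a difference of -2.28 ± 0.33 (SE, adjusted p = 0.00595). Cd68, a lysosomal protein abundant in macrophages, averaged 5.70 in tamoxifen high and 6.97 in tamoxifen low cells, and 4.99 in control high and 4.18 in control low cells (-2.09 ± 0.34 SE, adjusted p = 0.0211). Neurl3, a ubiquitin ligase, had -2.04 ± 0.34 (SE, adjusted p = 0.0211).

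The 2 genes above 0 are digestive genes. Cel, carboxyl ester lipase, averaged 4.48 in tamoxifen high and 4.36 in tamoxifen low cells, near background, and 4.66 in control high and 7.81 in control low cells. Sycn, syncollin of zymogen granules, was under background in tamoxifen high and low cells and in control high cells, and averaged 5.48 ± 0.22 in control low cells (SD, n = 3 arrays). Their values were 3.27 ± 0.52 and 1.88 ± 0.26 (SE, adjusted p = 0.0204 and 0.00435). Without tamoxifen low 1 or control low 2 the test called 3 genes, and without tamoxifen low 4 it called 10. Hamp, Sdcbp2 and Sycn were called in every such fit, while Cd68, Neurl3 and Cel each lost their call in at least 4 of them. With the replicate number as a block, Cd68 (adjusted p = 0.0624) and Neurl3 (0.0527) were no longer called.

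**Figure D5:**
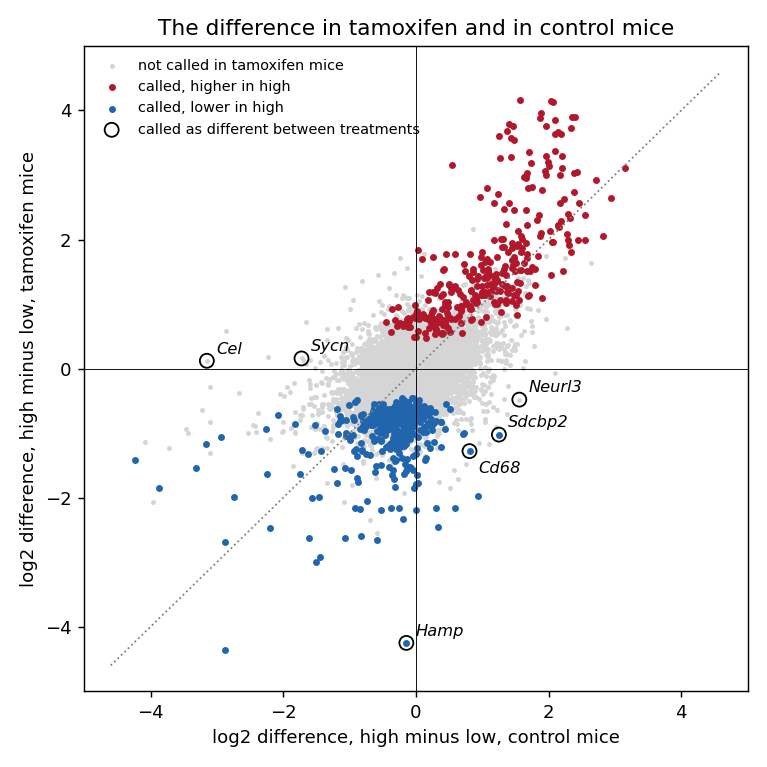
Each point is a gene, with the log2 difference, high minus low, in tamoxifen mice on the vertical axis and in control mice on the horizontal axis; red and blue mark genes called higher and lower in tamoxifen mice. Open black circles mark the 6 genes whose difference was called as unlike between treatments, with Hamp near 0 in control mice and at -4.25 in tamoxifen mice.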

How the data were processed

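Gene expression was measured on single-colour microarrays in sorted stomach corpus cells. The deposited table holds 1 log2 signal per probe set and array, which the authors had already normalized, per the submitters' processing notes, with R 3.2.3, limma 3.26.8, RMA and oligo, given without role or order. The log2 values run from 0.958 to 13.546. Per the labels, RNA was amplified as cDNA and biotinylated. Of 41345 probe sets, 23521 name exactly 1 gene in the platform's annotation. The probe set with the highest mean over 21 arrays stood for its gene, which left 22180 genes with no filter on level. One label field names the 3 control negative arrays low, while their titles and cell population labels give negative, which was used here.

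Group means of all 6 groups on 21 arrays were fitted with limma 3.58.1 in R 4.3.3 (lmFit and eBayes, 15 residual and 5.27 prior degrees of freedom), all tests two-sided with Benjamini-Hochberg adjustment over all genes. The fit was tested on simulated data. High and low arrays share a number in their titles. In control mice same-numbered arrays deviated together (correlations of 0.222 to 0.317), and in tamoxifen mice they did not (-0.094 to 0.148). The labels do not say what the numbers mark, and so few arrays cannot settle whether they mark pairs. Members and gene lists were chosen with earlier results of these data known. Genes named are the 15 largest differences each way among called genes without overlap (predicted genes and receptor families left out), up to 4 called members of each list, a panel of lineage and injury genes and those called between treatments. Further list members and tuft genes named in the text, and the tuft groups and symbol families, were chosen after their values were seen. Alternatives were fits without each array in turn, fits on the 8 arrays alone, array weights, the number in the titles as a fixed block (replicate block) or a random block, averaged probe sets per gene, eBayes with trend and robust, a filter on the dimmest 25% of genes and cyclic loess normalization. Upstream sequences are from RefSeq (GRCm38.p6).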

Additional observations from a re-analysis of the deposited data

Results flagged for a closer look

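Of 266 groups of 4 arrays examined for the genes named, 23 held an array that stood apart from the other 3 by Dixon's criterion, where chance gives about 1 group in 20.

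Among tamoxifen high arrays, array 1 stood high for Tff2 (12.63), Lig1 (7.08), Mcm3 (6.33) and Gsta4 (11.08). Array 2 was low for Agr2 (9.91) and high for Relb (5.84). Array 3 was high for Atp4b (8.59). Array 4 was low for Cct8 (7.86) and high for Smad6 (4.65), Tas1r1 (4.26) and Kdr (4.45). Among tamoxifen low arrays, array 1 was low for A4gnt (5.11) and Rab27a (6.91) and high for Slc4a2 (6.90). Array 2 was high for Lif (6.48) and Ptgs2 (3.71) and low for Il13ra1 (7.95). Array 3 was high for Cel (4.66), Ptpn6 (7.06) and Ptprc (4.71). Array 4 was low for Slamf9 (7.75) and Smad7 (6.28) and high for Nrg4 (4.63).

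For 6 genes the high minus low difference itself differed between tamoxifen and control mice by limma's test, with values of -4.11 for Hamp, -2.28 for Sdcbp2, -2.09 for Cd68, -2.04 for Neurl3, 3.27 for Cel and 1.88 for Sycn.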

How the results depend on the processing

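The 323 higher, 392 lower and 715 total calls became 193, 144 and 337 with array weights and 138, 107 and 245 with only the 8 arrays in the fit. Lower calls were 250 with cyclic loess normalization, which kept 240 of the 392. Leaving out 1 array gave 210 to 511 higher, 146 to 607 lower and 365 to 1118 total calls. The calls between treatments were 6, with 3 to 10 when 1 array was left out and 13 with the title number as a random block. Of 130 called genes among those named by the rule or in the text, none reversed under any alternative tried, and 120 stayed called with cyclic loess, 87 with array weights, 72 with the 8 arrays alone, 61 with the replicate block on those arrays and 92 to 124 without 1 array.

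In tamoxifen mice same-numbered arrays did not deviate together (0.223 to 0.342 for the best other number). That does not show whether they came from the same sorting run. In control mice each array correlated best with its own number. The replicate block gave 386 higher, 578 lower and 964 total calls over 21 arrays, with 5 between treatments, 4 of them among the 6, and with only the 8 arrays 112, 79 and 191. Signal over background limits dim genes, since 24 called genes had both means at or under the background guide, which gives no fold.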
